A study of Caenorhabditis elegans with 20 samples.

Results

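The genes described here build and run the sarcomere of *C. elegans* muscle, in the body wall and in the pharynx. They were chosen by name from a list of 36 genes, and 35 of them had a row of that name in both deposited tables, of 19861 genes in all. The remaining gene, myo-1, had no row of its own. The row let-75, an older name of the same pharyngeal myosin gene, lies outside that rule and is given separately. The study isolated the somatic gonadal precursor cells Z1 and Z4, or their daughters, from first-stage larvae and asked how their RNA differed from that of the whole animal and between the sexes. RNA was measured in 20 samples that make up 8 groups, one for each combination of tissue (gonadal or whole animal), sex and feeding time, and a group held 3 samples at 9.5 hr of feeding and 2 at 15 hr. Levels were available as 1 value per gene and group, the authors' FPKM pooled over the samples of that group (fragments per kilobase of transcript, scaled to the number of mapped fragments). No value of a single sample was available, so no replicate spread, standard deviation or test stands behind any difference below, and sequencing depth per sample is unknown.

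All groups carried xol-1(y9), which removes spontaneous XO males. Hermaphrodite gonadal cells came from strain DZ685, which is xol-1(y9) with the integrated array rdIs4, in which the ehn-3a promoter drives the Venus fluorescent protein in Z1, Z4 and their descendants. Male groups came from DZ683, which carries tra-2(ar221), xol-1(y9) and rdIs4 and was raised at the temperature at which the tra-2 mutation masculinizes. These animals were XX pseudomales, called males as in the study, so sex and the tra-2 mutation cannot be told apart. The study's methods give the same hatching and feeding temperature for the cultures of both sexes. Gonadal cells were dissociated, filtered and sorted for Venus. Whole-animal samples were dissociated and not sorted, from DZ683 for males. For hermaphrodites they came from DZ685 at 15 hr, while at 9.5 hr the strain was xol-1(y9) without rdIs4, so in that group the strain differed along with the tissue. Levels below are given for males first and hermaphrodites second.

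A sarcomere is the repeating contractile unit of striated muscle, in which thick filaments of myosin pull on thin filaments of actin. Troponin and tropomyosin on the thin filament hold contraction off until calcium arrives through membrane and internal calcium channels. In *C. elegans* the thin filaments are anchored in dense bodies and the thick filaments at M lines, and both structures tie the contractile lattice to the cell membrane. Body wall and pharynx use different myosin heavy chains and troponins. Body wall and pharyngeal muscle comes from lineages other than Z1 and Z4, although the hermaphrodite gonad later forms contractile sheath cells of its own.

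Levels of 7 markers of somatic gonadal precursors were compared between gonadal cells and whole animals. They are no independent check of cell identity, since the study named fkh-6, tra-1, gem-4 and sys-1 as gonad-enriched in these data. It took ckb-3 and pes-1 for reporters from genes with such enrichment, and the ehn-3a promoter drove the sorting marker. All 7 had higher levels in gonadal cells in both sexes at 9.5 hr and in males at 15 hr, and 5 of 7 were in hermaphrodites at 15 hr, where tra-1 was lower, and ehn-3 was under 1 FPKM in both tissues. ckb-3 stood at 277 FPKM (males) and 249 FPKM (hermaphrodites) among gonadal cells at 9.5 hr, beside 18.8 and 17.8 FPKM in whole animals, and at 217 and 155 FPKM beside 8.98 and 10.1 FPKM at 15 hr. The 35 sarcomere genes together made up 1.06% and 1.05% of all FPKM in whole animals at 9.5 hr and 0.971% and 0.997% at 15 hr. In gonadal cells they made up 0.405% and 0.318% at 9.5 hr and 0.431% and 0.301% at 15 hr.

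Sarcomere genes were among the most highly expressed genes of the larva. Their median was 169 and 165 FPKM in whole animals at 9.5 hr and 189 and 187 FPKM at 15 hr. Between 26 and 29 of the 35 lay at or above the 90th percentile of all genes in each whole-animal group, and no member lay below the percentile of 73.1. In gonadal cells the median was 61.7 and 45.03 FPKM at 9.5 hr and 82.4 and 48.3 FPKM at 15 hr, and 6 to 11 members lay at or above the 90th percentile. None was listed at 0 in gonadal cells. The lowest member there was ttn-1, at 3.23 FPKM in hermaphrodites at 15 hr, and the highest was act-4, at 311 FPKM in males at 15 hr.

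**Figure D1:**
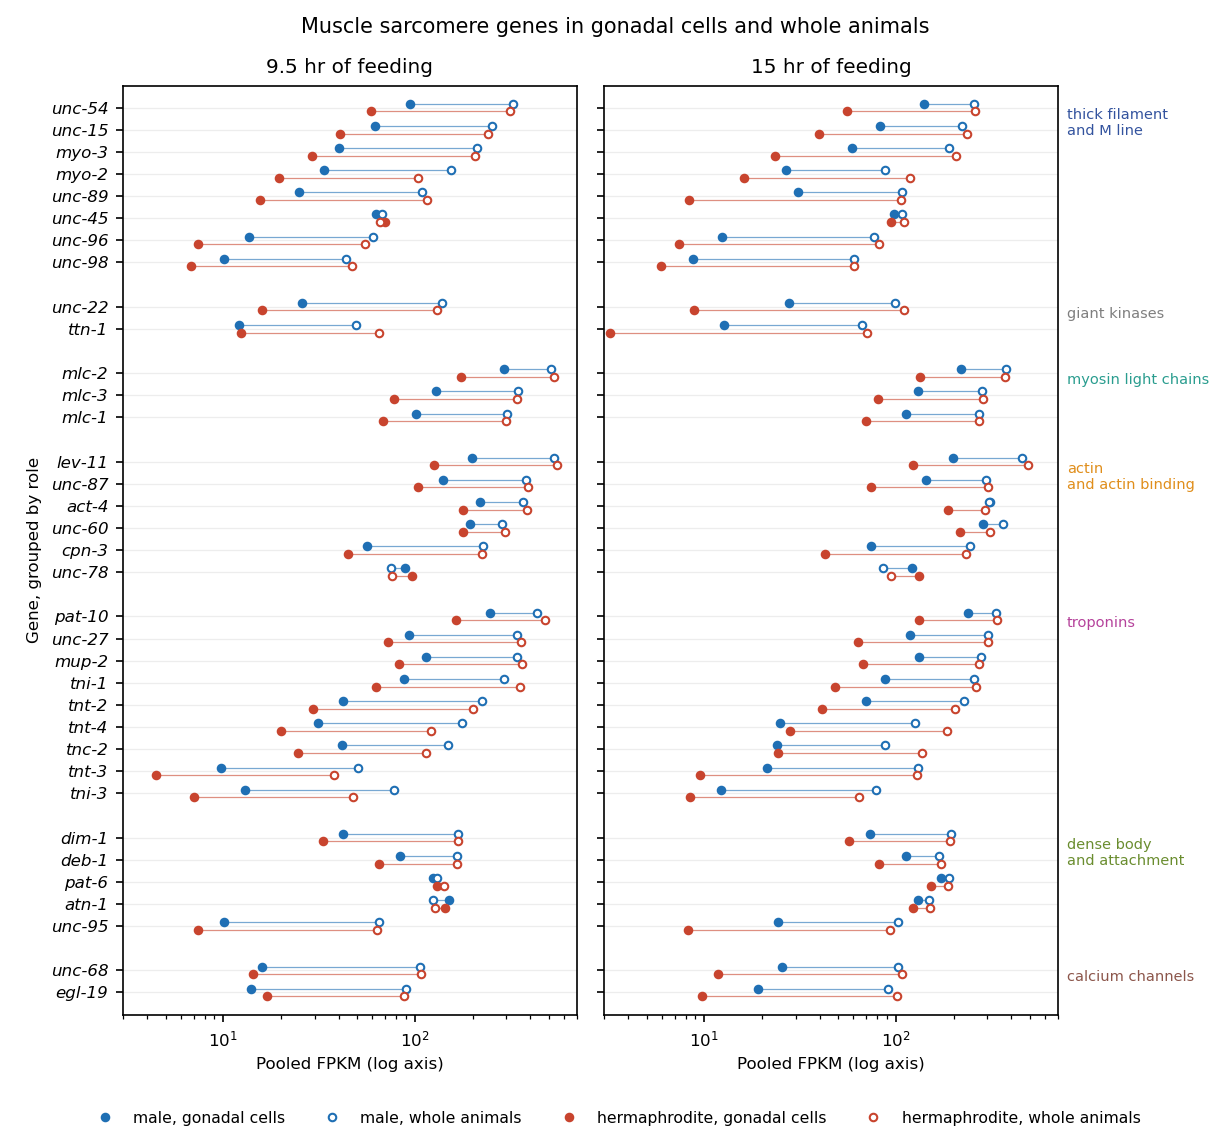
Pooled FPKM on a log axis of the 35 sarcomere genes, grouped by role, at 9.5 hr (left) and 15 hr (right), with filled points for gonadal cells, open points for whole animals, blue for males and red for hermaphrodites. Lines join the tissues of one sex, and each point is 1 pooled value without an error. In every pair, 31 of the 35 genes were lower in gonadal cells, and the same count over all genes was not made.

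Most members were lower in gonadal cells than in whole animals, and 31 of 35 were lower in both sexes at both times (32 with every group rescaled to the same sum of FPKM). Of all genes at 1 FPKM or more in either group, 9576 of 16748 (males) and 11276 of 18102 (hermaphrodites) were lower at 9.5 hr. At 15 hr 7918 of 15176 and 8146 of 15219 were lower. The share of all genes lower in every pair was not counted. A difference of at least 4-fold on the scale of log2(FPKM + 1) was found for 14 members (males) and 25 members (hermaphrodites) at 9.5 hr, and for 8 and 21 at 15 hr. After centring on the median of all genes these counts were 8 and 9 at 9.5 hr and 7 and 19 at 15 hr, so the gap between the sexes at 9.5 hr was nearly lost under that scaling. Over all genes with at least 1 FPKM in either group, 12.2% and 13.1% were that much lower at 9.5 hr and 15.4% and 22.2% at 15 hr. With 1 FPKM added, genes of the lowest levels cannot be 4-fold lower, and no member was that low in whole animals. Over genes with at least 5 FPKM in either group the shares were 16.6% and 18.1% at 9.5 hr and 19.1% and 26.9% at 15 hr. The 8 of 35 in males at 15 hr, 22.9%, came closest to the share of all genes. The members' median log2 ratio of gonadal cells to whole animals was -1.86 and -2.31 at 9.5 hr and -1.41 and -2.27 at 15 hr, and that of all genes was -0.29 and -0.62, and -0.10 and -0.22. In such bulk samples, fewer cells of a type and less RNA per cell cannot be told apart. Rescaling each group to the same sum of FPKM lowered the median log2 ratio of all genes by 0.104 and 0.103 at 9.5 hr. At 15 hr it was lowered by 0.201 and 0.137. The limit of 1 and the added 1 were applied again to the rescaled values, so these shifts are not of scaling alone. In hermaphrodites at 9.5 hr the gonadal sum, 692941 FPKM, was below the whole-animal sum, 702257 FPKM. Rescaling by itself therefore raised the gonadal ratios there, and the members' median went from -2.306 to -2.298.

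The relative gonadal level, the FPKM in gonadal cells as a percent of that in whole animals, had a median of 27.3% and 19.7% over the 35 members at 9.5 hr and 37.2% and 20.3% at 15 hr. For all genes with at least 20 FPKM in whole animals that median was 111% and 113% at 9.5 hr and 120% in both sexes at 15 hr, with a lower quartile of 41.8% and 42.1% at 9.5 hr and 35.99% and 24.2% at 15 hr. The members' median therefore lay below the lower quartile of all genes in 3 of the 4 pairs and just above it in males at 15 hr. Members were ordered much alike in the sexes, with a Spearman rho of 0.913 at 9.5 hr and 0.918 at 15 hr over 35 genes. This is a description of pooled values in which the sexes share their genes, lengths and base composition.

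The thick filament carries the myosin heavy chains, which form its motor. In the body wall, unc-54, the major heavy chain (chrI:14846467-14863529, ce10), stood at 94.7 FPKM (males) and 59.4 FPKM (hermaphrodites) among gonadal cells at 9.5 hr, beside 324 and 313 FPKM in whole animals, and at 139.9 and 55.8 FPKM beside 256 and 259.8 FPKM at 15 hr. The minor body wall heavy chain myo-3, which forms the centre of the filament (chrV:12226797-12234324), had 40.0 and 28.98 FPKM in gonadal cells against 212 and 206 FPKM in whole animals at 9.5 hr, and 59.4 and 23.4 FPKM against 190.2 and 206 FPKM at 15 hr. The pharyngeal heavy chain myo-2 (chrX:12467993-12475273) was listed at 33.4 and 19.4 FPKM at 9.5 hr and 26.9 and 16.2 FPKM at 15 hr in gonadal cells, and at 154 and 103.8 FPKM at 9.5 hr and 87.6 and 119 FPKM at 15 hr in whole animals. The row let-75, the other pharyngeal heavy chain (chrI:7258913-7267077), had 37.5 and 22.8 FPKM in gonadal cells against 166 and 117 FPKM in whole animals at 9.5 hr, and 26.8 and 15.2 FPKM against 85.0 and 119 FPKM at 15 hr. All 4 heavy chains were lower in gonadal cells in each pair, and unc-54 was the highest of them in all 8 groups. Its relative gonadal level was 29.2% and 18.9% at 9.5 hr and 54.7% and 21.5% at 15 hr, and that of myo-2 was 21.7% and 18.7% at 9.5 hr and 30.7% and 13.6% at 15 hr.

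Among the muscle myosin heavy chains, the ratio of the body wall genes myo-3 and unc-54 differed between the tissues, and the other ratios did so less regularly. The ratio of myo-3 to unc-54 was 0.655 and 0.657 in whole animals at 9.5 hr and 0.743 and 0.793 at 15 hr, and in gonadal cells it was 0.423 and 0.488 at 9.5 hr and 0.424 and 0.418 at 15 hr. The ratio of myo-2 to myo-3 was higher in gonadal cells in 3 of 4 pairs, at 0.836 and 0.671 beside 0.729 and 0.504 at 9.5 hr and at 0.452 and 0.693 beside 0.461 and 0.579 at 15 hr. The ratio of let-75 to unc-54 was 0.396 and 0.384 beside 0.513 and 0.373 at 9.5 hr, and 0.192 and 0.272 beside 0.332 and 0.458 at 15 hr, lower in gonadal cells in 3 of 4 pairs. The ratio of nmy-2, a nonmuscle myosin heavy chain of the cell cortex, to unc-54 was 2.097 and 3.52 in gonadal cells at 9.5 hr and 2.73 and 3.87 at 15 hr. In whole animals that ratio was 0.489 and 0.505, and 0.605 and 0.556. By FPKM, nmy-2 was thus above unc-54 in every gonadal group and below it in every whole-animal group.

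Other thick filament and M line genes were mostly as low as the heavy chains. unc-15 encodes paramyosin, the core protein of the filament, and its relative gonadal level was 24.4% and 16.9% at 9.5 hr and 37.2% and 16.9% at 15 hr. unc-89, which encodes a giant obscurin-like protein of the M line, had 22.6% and 13.4% at 9.5 hr and 28.6% and 7.83% at 15 hr. The M line protein gene unc-98 (chrX:7570329-7581011) had 10.1 and 6.78 FPKM in gonadal cells against 43.9 and 46.8 FPKM in whole animals at 9.5 hr, and 8.71 and 5.96 FPKM against 60.5 and 60.7 FPKM at 15 hr, so that it was among the 4 lowest members by the median of its 4 relative levels. Its M line partner unc-96 had a relative gonadal level of 22.4% and 13.3% at 9.5 hr and 16.1% and 9.05% at 15 hr.

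unc-45 was the exception among the thick filament genes. It encodes a chaperone that folds myosin heads, also of nonmuscle myosin (chrIII:491545-502589). It stood at 62.9 FPKM (males) and 69.7 FPKM (hermaphrodites) among gonadal cells at 9.5 hr, beside 67.3 and 65.5 FPKM in whole animals, and at 97.4 and 94.5 FPKM beside 107 and 111 FPKM at 15 hr. The gonadal and whole-animal values lay close to each other in each pair, with a relative gonadal level of 93.4% and 106% at 9.5 hr and 91.0% and 85.3% at 15 hr.

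The giant kinases twitchin (unc-22) and the titin-like ttn-1 are long proteins of the thick filament and the elastic region of the sarcomere. Both were lower in gonadal cells than in whole animals in each pair. ttn-1 had 12.03 and 12.4 FPKM in gonadal cells against 49.1 and 65.2 FPKM in whole animals at 9.5 hr, and 12.7 and 3.23 FPKM against 66.5 and 70.4 FPKM at 15 hr, and its relative gonadal level in hermaphrodites at 15 hr, 4.59%, was the lowest of any member in any pair. unc-22 had 25.8 and 15.9 FPKM in gonadal cells against 138 and 131 FPKM in whole animals at 9.5 hr, and 27.6 and 8.84 FPKM against 99.4 and 110.3 FPKM at 15 hr.

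The myosin light chains bind the neck of the heavy chain. mlc-2, a regulatory light chain (chrX:17452318-17456520), stood at 294 FPKM (males) and 175 FPKM (hermaphrodites) among gonadal cells at 9.5 hr, beside 512 and 534 FPKM in whole animals, and at 218 and 134 FPKM beside 374 and 372 FPKM at 15 hr. mlc-3, the essential light chain (chrIII:5564985-5567344), had 128 and 77.6 FPKM in gonadal cells against 344 and 342 FPKM in whole animals at 9.5 hr, and 131 and 81.0 FPKM against 283 and 283 FPKM at 15 hr. All 3 light chain genes were lower in gonadal cells in each pair, with relative levels from 22.6% to 58.3%. mlc-1 lies 2565 bases from mlc-2 on the X chromosome and encodes nearly the same protein, so reads of 50 bases could be divided between them, and their separate values are uncertain.

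Among thin filament genes the members ran from far below to above the whole animal. Tropomyosin lev-11 (chrI:14621151-14631243), which lies along the actin filament and was the most abundant member in whole animals, stood at 199 FPKM (males) and 127 FPKM (hermaphrodites) among gonadal cells at 9.5 hr, beside 531 and 549 FPKM in whole animals, and at 198.1 and 122.4 FPKM beside 457 and 492 FPKM at 15 hr. The calponin-related actin bundler unc-87 (chrI:6761568-6767798) had 141 and 103.7 FPKM in gonadal cells against 378 and 392 FPKM in whole animals at 9.5 hr, and 144 and 74.6 FPKM against 297 and 303 FPKM at 15 hr. For these genes the gonadal value was between 23.1% and 48.5% of the whole-animal value over the 4 pairs. cpn-3, a calponin-like gene, was lower still, at 24.9% and 20.1% at 9.5 hr and 30.1% and 18.4% at 15 hr of its whole-animal level.

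act-4 encodes one of the muscle actins (chrX:4960522-4969328) and stood at 219.7 FPKM (males) and 178 FPKM (hermaphrodites) among gonadal cells at 9.5 hr, beside 368 and 385 FPKM in whole animals, and at 311 and 187 FPKM beside 307 and 292 FPKM at 15 hr. Its value in male gonadal cells at 15 hr was 101% of that in male whole animals, or 89.9% with every group rescaled to the same sum of FPKM, and the other 3 pairs lay between 46.2% and 63.99%. The actin genes act-1, act-2 and act-3 encode nearly the same protein as act-4, and their values and that of act-4 are uncertain where reads were shared. act-2 was higher in gonadal cells, with 179 and 171 FPKM in gonadal cells against 151 and 164 FPKM in whole animals at 9.5 hr, and 239 and 170.4 FPKM against 144 and 138 FPKM at 15 hr. act-1 and act-3 were lower there, with median relative levels of 54.05% and 51.8%.

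The genes unc-60 and unc-78, whose products turn actin filaments over, ran from 60.1% to 142% of their whole-animal level. unc-78 encodes the actin-interacting protein that works with cofilin to take filaments apart (chrX:3408661-3411669), and it was the only member higher in gonadal cells in all 4 pairs. It stood at 89.01 FPKM (males) and 96.8 FPKM (hermaphrodites) among gonadal cells at 9.5 hr, beside 75.5 and 76.5 FPKM in whole animals, and at 122.1 and 131 FPKM beside 86.2 and 94.9 FPKM at 15 hr. Its relative gonadal level of 118% and 127% at 9.5 hr and 142% and 138% at 15 hr was the highest of the members by its median, 133%. unc-60, the cofilin gene, gives rise to both a muscle and a nonmuscle protein that are summed in its row, and its relative gonadal level was 68.3% and 60.1% at 9.5 hr and 79.2% and 70.1% at 15 hr.

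Troponins make the thin filament respond to calcium, with a T subunit bound to tropomyosin, an inhibitory I subunit and a calcium-binding C subunit. The body wall troponin C, pat-10 (chrI:5018770-5020166), stood at 248 FPKM (males) and 164 FPKM (hermaphrodites) among gonadal cells at 9.5 hr, beside 432 and 476 FPKM in whole animals, and at 237 and 132 FPKM beside 334 and 338 FPKM at 15 hr. Pharyngeal troponin C, tnc-2 (chrII:10466792-10468284), had 41.6 and 24.7 FPKM in gonadal cells against 149.8 and 114 FPKM in whole animals at 9.5 hr, and 23.9 and 24.2 FPKM against 87.4 and 138 FPKM at 15 hr. Both were lower in gonadal cells in each pair, and pat-10 had the highest relative gonadal level of the 9 troponins, with a median of 48.2%, against 24.5% for tnc-2. The ratio of tnc-2 to pat-10 was 0.168 and 0.151 for gonadal cells at 9.5 hr, beside 0.347 and 0.240 for whole animals, and 0.101 and 0.183 beside 0.261 and 0.407 at 15 hr.

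The inhibitory and T subunits were lower in gonadal cells than in whole animals in each pair. unc-27, a body wall troponin I (chrX:8789401-8790568), had 93.1 and 72.9 FPKM in gonadal cells against 341 and 356 FPKM in whole animals at 9.5 hr, and 119 and 63.7 FPKM against 304 and 304 FPKM at 15 hr. mup-2, a body wall troponin T (chrX:6408433-6410322), stood at 115 FPKM (males) and 82.3 FPKM (hermaphrodites) among gonadal cells at 9.5 hr, beside 342 and 361 FPKM in whole animals, and at 131 and 67.4 FPKM beside 279 and 270.4 FPKM at 15 hr. The remaining troponins tni-1, tni-3, tnt-2 and tnt-4 had median relative levels of 24.2%, 15.2%, 19.6% and 17.1%. The pharyngeal troponin I gene tni-4, which is not on the member list, had a median of 24.4%.

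tnt-3, another troponin T gene (chrX:7937590-7945000), stood apart by time. It had 9.74 and 4.47 FPKM in gonadal cells against 50.7 and 37.9 FPKM in whole animals at 9.5 hr, and 21.2 and 9.48 FPKM against 129.9 and 129.5 FPKM at 15 hr. The whole-animal values at 15 hr were 2.56 and 3.42 times those at 9.5 hr, and no other member had a ratio above 1.69. The 2 times come from separate normalizations, so this sets levels side by side and is not a test of time. Its percentile among all genes of the group was 78.8 and 73.1 at 9.5 hr and 94.2 and 94.2 at 15 hr.

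Dense body and attachment genes split into those near their whole-animal level and those far below. The alpha-actinin gene atn-1, whose protein crosslinks actin at the dense body (chrV:12478394-12484423), stood at 150.04 FPKM (males) and 143 FPKM (hermaphrodites) among gonadal cells at 9.5 hr, beside 124 and 127 FPKM in whole animals, and at 130.0 and 123 FPKM beside 148 and 151 FPKM at 15 hr, and was higher in gonadal cells at 9.5 hr and lower at 15 hr. pat-6, which encodes actopaxin, an integrin-associated protein (chrIV:261892-264232), had 125 and 131 FPKM in gonadal cells against 130.1 and 142 FPKM in whole animals at 9.5 hr, and 173 and 153 FPKM against 189 and 187 FPKM at 15 hr, close to equal in each pair. deb-1, the vinculin gene, had a relative gonadal level of 50.7% and 39.3% at 9.5 hr and 66.9% and 47.3% at 15 hr. These genes differed from dim-1, which encodes an immunoglobulin-repeat protein near the muscle cell membrane and had 25.03% and 19.7% at 9.5 hr and 37.6% and 29.6% at 15 hr. unc-95, a LIM domain protein gene of dense bodies and M lines (chrI:14381368-14384725), had the lowest median relative level of all members, 13.6%, with 10.1 and 7.41 FPKM in gonadal cells against 65.1 and 63.7 FPKM in whole animals at 9.5 hr, and 24.1 and 8.28 FPKM against 103 and 93.5 FPKM at 15 hr.

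Both calcium channel genes were lower in gonadal cells than in whole animals in each pair. unc-68, the ryanodine receptor that releases calcium from internal stores (chrV:6901670-6929020), stood at 15.9 FPKM (males) and 14.3 FPKM (hermaphrodites) among gonadal cells at 9.5 hr, beside 106 and 108 FPKM in whole animals, and at 25.3 and 11.8 FPKM beside 102 and 108 FPKM at 15 hr. egl-19, the voltage-gated calcium channel of the muscle membrane, had a relative gonadal level of 15.4% and 19.2% at 9.5 hr and 20.8% and 9.60% at 15 hr.

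**Figure D2:**
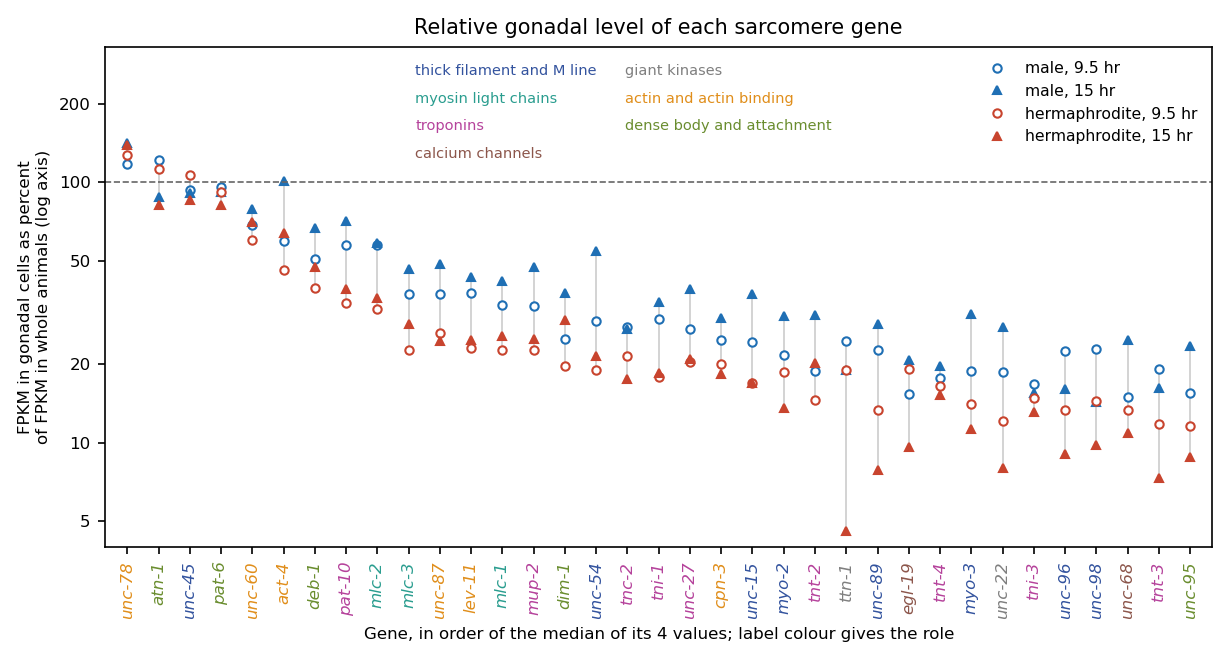
FPKM in gonadal cells as a percent of FPKM in whole animals of the same sex and time, on a log axis, for the 35 sarcomere genes in order of the median of 4 values, with circles for 9.5 hr, triangles for 15 hr, blue for males and red for hermaphrodites. The dashed line marks equal levels, and the genes run from unc-78, with a median of 133%, to unc-95, with 13.6%. The hermaphrodite value at 15 hr lies below the male one for each of these genes, and the same count over all genes was not made.

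Members listed as also used outside muscle had higher medians, on a list drawn up with earlier results of these data known. This list of 8 genes (unc-60, lev-11, unc-45, unc-78, act-4, mlc-3, deb-1 and pat-6) had a median relative gonadal level of 63.98% and 53.2% at 9.5 hr and 85.1% and 67.1% at 15 hr. It was mixed, as lev-11 and mlc-3 had medians of 31.2% and 33.0%, while atn-1, at 100%, was not on it. The part of use outside muscle was not tested. The 8 body wall members had 25.9% and 17.9%, and 38.1% and 20.6%. The 3 pharyngeal members had 21.7% and 18.7%, and 27.3% and 15.3%. A list of 13 further attachment genes of body wall muscle had 53.8% and 32.0%, and 44.2% and 25.7%, and within it unc-82, unc-94 and pat-3, which encode a kinase of the M line, a tropomodulin and the beta integrin, had the highest medians at 121%, 111.9% and 88.8%. Nonmuscle and other actomyosin genes, a list of 10, had medians of 109% and 102% at 9.5 hr and 99.4% and 89.5% at 15 hr over the 9 or 10 genes at 20 FPKM or more in whole animals. In that list the nonmuscle myosin heavy chains nmy-1 and nmy-2 and the light chain mlc-4 had medians of 106%, 141% and 128%.

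The marker genes of other tissues were measured in the same way, and most of the lists were lower in gonadal cells too, while germline markers were less so by their sums. Neuron markers, 12 of 12 measured, had a median relative gonadal level of 25.8% and 24.0% at 9.5 hr and 25.5% and 10.9% at 15 hr. Their summed level ran from 469.9 to 723 FPKM over the 4 gonadal groups and from 2046 to 2186 FPKM in whole animals. Intestine markers, 9 of 10 measured, had medians of 29.6% and 22.9%, and 26.6% and 17.2%, over the 5 genes at 20 FPKM or more in whole animals. Their sums ran from 105 to 243 FPKM in gonadal cells and from 465 to 586 FPKM in whole animals. Coelomocyte markers, 3 of 3, had the lower medians of 8.3% and 8.0%, and 12.6% and 4.0%, with sums of 23.4 to 48.7 FPKM beside 343 to 559.5 FPKM. Hypodermis markers, 10 of 10, had sums of 71.9 and 79.9 FPKM in gonadal cells at 9.5 hr beside 284 and 102 FPKM in whole animals, and of 587 and 280.3 FPKM beside 1210 and 1078 FPKM at 15 hr. The gonadal sum of this list in hermaphrodites at 9.5 hr was thus 78.2% of the whole-animal sum, against 25.3% to 48.5% in the other 3 pairs. In that pair 9 of the 10 genes were still lower in gonadal cells, with a median log2 ratio of -1.09 over the list. The remaining 1 was higher, at 1.52. Pharynx markers that are not muscle genes, 5 of 5, had gonadal sums of 14.7% and 11.7% of the whole-animal sums at 9.5 hr and 14.8% and 32.8% at 15 hr. In hermaphrodites at 15 hr, 1 of these genes stood at 198% of its whole-animal level. The median there was 7.13%, over the 4 genes at 20 FPKM or more in whole animals. Germline markers, 6 of 6, had sums of 134 and 140 FPKM in gonadal cells at 9.5 hr and 165 and 135 FPKM at 15 hr, which were 106% and 81.9%, and 81.4% and 59.6%, of the whole-animal sums. Most of that gonadal sum was from mes-3, and 5 of the 6 genes were lower in gonadal cells in each pair except males at 15 hr, where 4 were. None of these markers was listed at 0 in gonadal cells. The median of the body wall members lay between the neuron and intestine medians in males at 9.5 hr, below both in hermaphrodites at 9.5 hr, and above both in each sex at 15 hr. What share of the sarcomere RNA in sorted cells came from cells other than Z1, Z4 and their daughters was not tested.

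**Figure D3:**
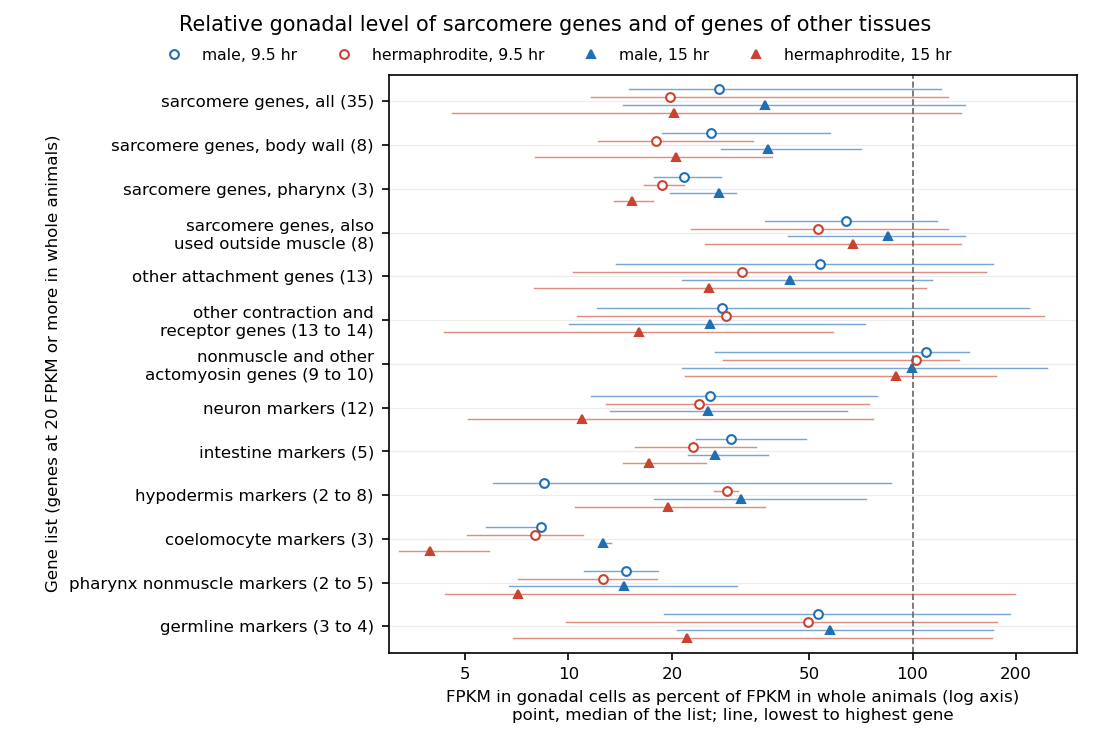
Relative gonadal level on a log axis for lists of genes, with the number of genes at 20 FPKM or more in whole animals in brackets, circles for 9.5 hr, triangles for 15 hr, blue for males and red for hermaphrodites. Points are list medians and lines run from the lowest to the highest gene; the sarcomere medians of 19.7% to 37.2% lie near those of neuron and intestine markers, which run from 10.9% to 29.6%, above coelomocyte markers and below the nonmuscle actomyosin genes.

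The relative gonadal level tended to be higher for members that were abundant in whole animals. Over the 35 members, Spearman's rho between both quantities was 0.405 and 0.447 at 9.5 hr and 0.610 and 0.544 at 15 hr. These points come from the same libraries, and the level in whole animals enters both quantities. With the length of the longest annotated transcript, rho was -0.304 and -0.298 at 9.5 hr and -0.154 and -0.368 at 15 hr, and length and whole-animal level were themselves related, with rho from -0.445 to -0.355. The 12 members with the shortest transcripts had a median relative level of 28.9% and 21.03% at 9.5 hr and 36.8% and 19.7% at 15 hr. For the 12 with the longest, it was 22.1% and 17.8%, and 29.6% and 11.1%. The part of level and of length was not tested.

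**Figure D4:**
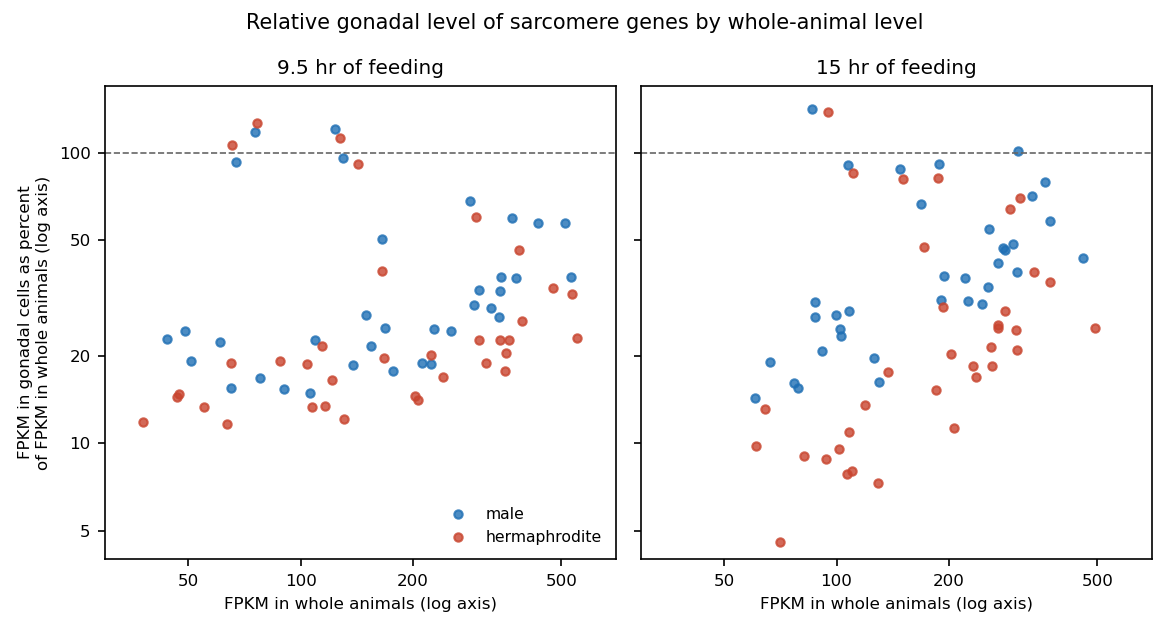
Relative gonadal level (percent) against FPKM in whole animals, both on log axes, for the 35 sarcomere genes at 9.5 hr (left) and 15 hr (right), with blue for males, red for hermaphrodites and a dashed line at equal levels. At 15 hr, members from 60.5 FPKM in whole animals upward spread from 4.59% to 142%, with the lowest percents among the less abundant genes and a group of genes near or above the line.

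Between the sexes, sarcomere RNA in gonadal cells was higher in males. 30 of 35 members were higher in male than in hermaphrodite gonadal cells at 9.5 hr and 32 at 15 hr, and 28 were at both times. With every group rescaled to the same sum, 30 were at each time. Of all genes with at least 1 FPKM in either group, 7213 of 14240 were higher in males at 9.5 hr. At 15 hr it was 7697 of 13667. The share of all genes at both times, or after rescaling, was not counted. unc-78 was the member lower in males at both times. The median log2 ratio of males to hermaphrodites was 0.47 at 9.5 hr and 0.73 at 15 hr, beside 0.01 and 0.09 over all genes. No member differed by 4-fold, beside 0.723% of all genes at 9.5 hr and 2.50% at 15 hr. At 2-fold, no member was higher in males at 9.5 hr, beside 4.03% of all genes, and 9 of 35 (25.7%) were at 15 hr, beside 9.56%.

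These 9 members were ttn-1, unc-89, unc-22, unc-95, myo-3, unc-54, tnt-3, unc-68 and unc-15. unc-89 had 24.8 and 15.6 FPKM at 9.5 hr and 30.9 and 8.36 FPKM at 15 hr in gonadal cells, a male to hermaphrodite ratio of 3.70 at 15 hr. For ttn-1 that ratio of FPKM was 3.92 at 15 hr and 0.97 at 9.5 hr. For unc-22 it was 3.12 and 1.62, and for unc-54 it was 2.51 and 1.59. In whole animals these ratios at 15 hr were near 1, from 0.90 for unc-22 to 1.10 for unc-95. tnt-3 was 2.18 times as high in male gonadal cells at 9.5 hr in FPKM, but under 2-fold on the scale with 1 FPKM added. At 15 hr the ratios were 0.93 for unc-78, 1.03 for unc-45, 1.06 for atn-1 and 1.13 for pat-6. These were the 4 members with the highest median relative gonadal level. Their relative gonadal levels and their whole-animal levels were both alike in the sexes. The ratios near 1 restate those values and add nothing to them. For act-4, near its whole-animal level in male gonadal cells only, the ratio was 1.67.

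Markers of other tissues did not all run the same way between the sexes in gonadal cells, and which lists were higher in males differed between the times. In gonadal cells at 15 hr, neuron markers had a median log2 ratio of males to hermaphrodites of 0.77 (11 of 12 higher in males, sums of 675 and 469.9 FPKM). Hypodermis markers had 0.83 (10 of 10, 587 and 280.3 FPKM) and coelomocyte markers 1.08 (3 of 3, 48.7 and 23.4 FPKM), while intestine markers had 0.01 (5 of 9, 141 and 105 FPKM). Germline markers had 0.37 (6 of 6, 165 and 135 FPKM). Pharynx markers that are not muscle genes had 0.23 (3 of 5), with the lower sum in males (60.8 and 194 FPKM). In that list 1 gene had a log2 ratio of -3.22 and was the only one lower in males by 4-fold or more. Somatic gonadal precursor markers had 1.26 (6 of 7, 681 and 372 FPKM). At 9.5 hr the neuron and coelomocyte medians were 0.01 and 0.09, germline and nonmuscle pharynx markers had 0.01 and 0.00, hypodermis had 0.28, and the sarcomere genes 0.47. Intestine markers had 0.64 at that time (8 of 9 higher in males, 243 and 134 FPKM), above the sarcomere genes. The part of other tissues in the difference between the sexes was not tested, and with 1 pooled value per group its spread between samples is unknown.

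In whole animals, most members were alike in the sexes. The ratio of male to hermaphrodite levels was within 1.25-fold for 29 of 35 members at 9.5 hr and for 32 of 35 at 15 hr, on the scale with 1 FPKM added. No member differed by 4-fold at either time, beside 0.846% and 0.734% of all genes. The median log2 ratio was 0.00 and -0.02.

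The pharyngeal genes differed from the body wall genes here. myo-2, let-75, tnc-2, tnt-4 and tni-4 were all higher in male whole animals at 9.5 hr and all higher in hermaphrodites at 15 hr. For myo-2 the ratio of male to hermaphrodite FPKM was 1.49 at 9.5 hr and 0.73 at 15 hr. For tnc-2 it was 1.31 and 0.64, and for let-75 1.42 and 0.71. tnt-4 had 177 and 121 FPKM at 9.5 hr and 126 and 184 FPKM at 15 hr in whole animals, and tni-4 had 198.3 and 145 FPKM at 9.5 hr and 141 and 189.9 FPKM at 15 hr. In contrast the 8 body wall members had a median log2 ratio of 0.04 and -0.02 at the 2 times, and none of them reached the ratio of any pharyngeal gene. A sex difference of this size at 9.5 hr was not particular to the pharyngeal genes: the highest log2 ratio of any member was 0.70 for tni-3 (77.6 and 47.4 FPKM in male and hermaphrodite whole animals), and tnt-3 had 0.41, and neither is on the pharyngeal or the body wall list. At 15 hr tni-3 had 0.29 and tnt-3 had 0.00, so neither was the higher in hermaphrodites. Over all genes, the 5th and 95th percentiles of log2 ratios in whole animals were -0.94 and 0.61 at 9.5 hr and -0.86 and 0.61 at 15 hr, so the pharyngeal ratios lay inside that range. The range covers all genes with at least 1 FPKM in either group and was not matched for level. Pharynx markers that are not muscle genes, 5 of 5 measured, had median log2 ratios of -0.04 at 9.5 hr and -0.60 at 15 hr, with sums of 204 and 248 FPKM and of 410.0 and 591 FPKM. Hypodermis markers had 1.27 and 0.16, and the hermaphrodite whole-animal strain changed between the times, so strain and time cannot be told apart for that group. At 9.5 hr the male whole animals carried rdIs4 and the hermaphrodite ones did not. Sex and the array therefore cannot be told apart in the whole-animal ratios of that time.

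In gonadal cells these genes did not follow the whole animal throughout. At 9.5 hr all 5 were higher in males, as were the 8 body wall members. At 15 hr myo-2 and let-75 were again higher in male gonadal cells, by 1.66-fold and 1.77-fold in FPKM, while tnc-2 and tnt-4 had ratios of 0.99 and 0.88, and tni-4 of 0.93. tnt-4 and tnc-2 were the only members besides unc-78 that were not higher in male gonadal cells at 15 hr.

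**Figure D5:**
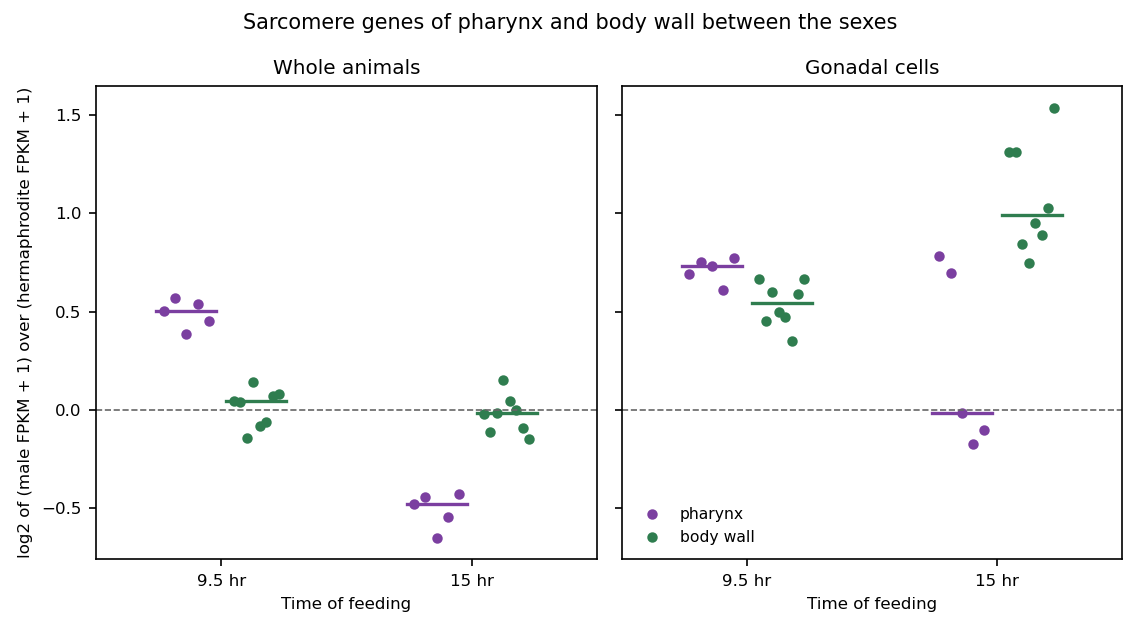
log2 of the male over the hermaphrodite level, with 1 FPKM added to each, in whole animals (left) and gonadal cells (right), for 5 pharyngeal genes (let-75, myo-2, tnc-2, tnt-4 and tni-4, purple) and 8 body wall genes (green) at 9.5 and 15 hr. Points are genes and short lines their medians; in whole animals the pharyngeal genes lie above 0 at 9.5 hr and below 0 at 15 hr while body wall genes lie near 0, and in gonadal cells all body wall genes lie above 0 at both times.

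The members were not spread evenly over the genome. Of the 35, 13 (37.1%) lie on the X chromosome, which holds 14.0% of the genes in the tables, 8 on I, 7 on V, 4 on IV, 2 on III and 1 on II. Members on the X had high and low relative gonadal levels, among them both unc-78 and tnt-3. After mlc-1 and mlc-2, the closest pair on a chromosome was cpn-3 and unc-89 on I, 47192 bases apart.

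Of 4115 other named genes, those whose pattern over the 8 groups was most like the members' mean were ketn-1 (Pearson r of 0.997), sup-12 (0.997), nlg-1 (0.996), gpb-1 (0.996) and alh-12 (0.995), as correlations of log2(FPKM + 1) over 8 pooled values. ketn-1 encodes kettin, a thin filament protein, and had 15.3 and 10.5 FPKM in gonadal cells against 96.2 and 94.1 FPKM in whole animals at 9.5 hr, and 22.5 and 7.45 FPKM against 85.7 and 93.6 FPKM at 15 hr. sup-12, an RNA-binding regulator of muscle splicing, had 20.6 and 11.9 FPKM in gonadal cells against 108 and 111 FPKM in whole animals at 9.5 hr, and 26.2 and 11.2 FPKM against 146 and 126 FPKM at 15 hr. With 8 points that fall into both tissues, such values mainly describe the step from gonadal cells to whole animals.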

How the data were processed

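The series holds 20 RNA samples, and groups (sex, tissue and time) were taken from the sample labels. Strain genotypes come from the study's methods and are not in the labels. The authors depleted ribosomal RNA, built TruSeq libraries without poly(A) selection, sequenced single-end reads of 50 bases, and mapped them with TopHat 1.4.1 to the ce10 (WS220) genome. CASAVA 1.8 and Picard 1.56 are named in the submitters' processing notes without a role, so whether duplicate reads were removed is not given in the sources used here. The authors ran Cuffdiff 2.1.1 for each time point. The deposited FPKM values are Cuffdiff's levels pooled over the samples of a group, and the 2 runs were normalized separately, so levels of 9.5 and 15 hr are set side by side only. The deposited tables also hold the authors' comparisons (fold changes, test statistics, p-values and q-values), which were not used. Unused per-sample columns numbered 0. The 1 row that names no gene, with 0.177% to 0.293% of the FPKM of a group, was left out.

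Ratios are log2((FPKM + 1)/(FPKM + 1)), which understates changes of low genes, and a gene was counted when they reached 2 in size (4-fold). The background is all genes with at least 1 FPKM in either group. The relative gonadal level is a ratio of FPKM without a pseudocount, over genes with at least 20 FPKM in whole animals. Counting was tested on simulated data. Locus starts in the tables count from 0 and are printed from 1, on ce10. Transcript lengths are from the WBcel235 annotation, in which all 35 members were found, and no coordinate was taken from it. Python 3.11.15, pandas 2.3.3, NumPy 2.4.6, SciPy 1.17.1 and matplotlib 3.10.9 were used.

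The members and lists were chosen with earlier results of these data known. Values in all groups are given for the 8 members with the highest summed whole-animal FPKM, the 4 with the highest and the 4 with the lowest median relative gonadal level, members higher in gonadal cells in any pair or past 4-fold between the sexes, and the myosin heavy chain and troponin C paralogs. The values of tnt-4, ttn-1, unc-22 and unc-89 were singled out after they were seen.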

Additional observations from a re-analysis of the deposited data

How the results depend on the processing

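Depth limits low levels to an unknown extent, since reads per sample cannot be had from pooled FPKM, and no difference has a replicate check. Leaving out replicates was not run, because the values are pooled over replicates. No paired analysis was possible because the deposited values are pooled over the samples of each group. Of 224 alternatives over 44 results, 192 stayed close to the reported value (counts and percents within 1.5 times), 32 moved and 0 changed sign.

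The counts of members depended on the fold and on centring. In gonadal cells against whole animals at 9.5 hr, the 14 members lower by 4-fold (males) became 9 with a pseudocount of 5 FPKM, 26 at 2-fold and 8 after centring on the median of all genes. The 25 in hermaphrodites became 9 after centring, where their median log2 ratio was -1.69. At 15 hr the 8 in males became 25 at 2-fold, and the 0 members differing between male and hermaphrodite gonadal cells became 9.

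The share of all genes past the fold moved more. For gonadal cells against whole animals it was, with a pseudocount of 0.1 FPKM, 21.04% (males) and 33.2% (hermaphrodites) at 9.5 hr and 24.6% for males at 15 hr. With a pseudocount of 5 FPKM it was 4.42%, 3.96%, 5.61% and 10.7% in males and hermaphrodites at 9.5 hr and at 15 hr. At 2-fold it was 31.04%, 40.2%, 34.3% and 38.2%, and after centring 7.92% and 4.19% at 9.5 hr. For the sexes it was, with pseudocounts of 0.1 and 5 FPKM and at 2-fold, 3.34%, 0.0913% and 6.63% for gonadal cells at 9.5 hr, beside 2.67%, 0.186% and 6.14% for whole animals. At 15 hr these were 6.29%, 0.863% and 14.5%, beside 2.66%, 0.1049% and 5.42%. Centring and the larger pseudocount move the negative ratios toward 0 by construction. Leaving out members with near-identical paralogs, or those also used outside muscle, moved no count of members by more than 1.5 times. The members' median log2 ratio of male to hermaphrodite whole animals at 9.5 hr, 0.0029, became 0.01 and 0.02, all close to 0.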
